A study of Rattus norvegicus with 16 samples.

Results

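Opioid and cannabinoid receptors and the precursors of the opioid peptides were followed in rat dorsal root ganglia (DRGs) during bone cancer. The set holds 9 genes of the 21021 listed in every sample: the opioid receptor genes Oprm1, Oprd1, Oprk1 and Oprl1, the precursor genes Penk, Pdyn and Pomc, and the cannabinoid receptor genes Cnr1 and Cnr2. They were found by an exact match of the gene symbol, and all 9 were listed. Cnr2 was higher than in sham on days 7 and 14 after tumor cell implantation, Oprl1 was lower on day 7, and no member passed the test on day 1. The day 7 result of Oprl1 no longer passed in 7 of 25 alternative fits, and that of Cnr2 in 1 of 24. Expression is given as FPKM, a fragment count divided by transcript length and by the depth of the sample, so that levels can be set beside each other between genes.

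Opioid receptors are receptors coupled to inhibitory G proteins, and on sensory neurons their activation closes calcium channels, opens potassium channels and dampens transmitter release. The enkephalins, dynorphins and beta-endorphin that activate them are cut from the larger proteins encoded by Penk, Pdyn and Pomc. Cannabinoid receptors couple to the same class of G proteins. CB1, the product of Cnr1, is known mainly from neurons, whereas CB2, the product of Cnr2, is known mainly from macrophages, B cells and other immune cells.

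Adult female Sprague-Dawley rats received cells of a rat mammary carcinoma line in the left tibia (tumor cell implantation, TCI), and the L3, L4 and L5 DRGs of that side were pooled from 1 animal as 1 sample. DRGs were collected 1, 7 or 14 days later (TCI D1, TCI D7 and TCI D14, with 4 samples each). The 4 sham samples were collected on day 14 only, so time since surgery and treatment cannot be told apart for TCI D1 and TCI D7. Sham rats were injected with PBS by the sample labels and with boiled tumor cells by the methods. The methods do not state that any allele was altered, and all animals belong to 1 outbred strain.

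The study left out replicate 2 of TCI D1 and replicate 3 of TCI D7 for low correlation with other samples. The main values therefore rest on 14 samples (4 sham, 3 TCI D1, 3 TCI D7 and 4 TCI D14), and those over all 16 are given where a call changes. Replicate 3 of TCI D7 stood apart by a skeletal muscle list that summed to 21262 FPKM against 239 to 774 FPKM in the other 15 samples. The labelled tissue carried its markers, with 14 pan-neuronal genes summing to between 10959 and 19204 FPKM. Read totals are not in the tables, and the smallest values placed the relative depth of the samples between 0.908 and 1.21.

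Oprl1, which encodes the nociceptin receptor, was the most abundant member in sham DRGs at 15.5 ± 0.482 FPKM (SD, n = 4), at percentile 73.9 of the genes above 0. It was followed by Penk at 5.11 ± 1.09 FPKM and by Cnr1 at 4.48 ± 0.533 FPKM, whose sham ranges overlapped. The mu receptor gene Oprm1 stood at 2.36 ± 0.197 FPKM and the kappa receptor gene Oprk1 at 1.94 ± 0.389 FPKM. Cnr2 was at 1.49 ± 0.0903 FPKM, Pomc at 1.30 ± 0.179 FPKM and the delta receptor gene Oprd1 at 1.28 ± 0.481 FPKM. Pdyn was lowest at 0.103 ± 0.0330 FPKM. In this order only 3 steps separated the ranges of neighbours. Oprl1 lay 3.03-fold above Penk, Cnr1 lay 1.90-fold above Oprm1, and Oprd1 lay 12.5-fold above Pdyn, whereas the other neighbours overlapped.

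**Figure D1:**
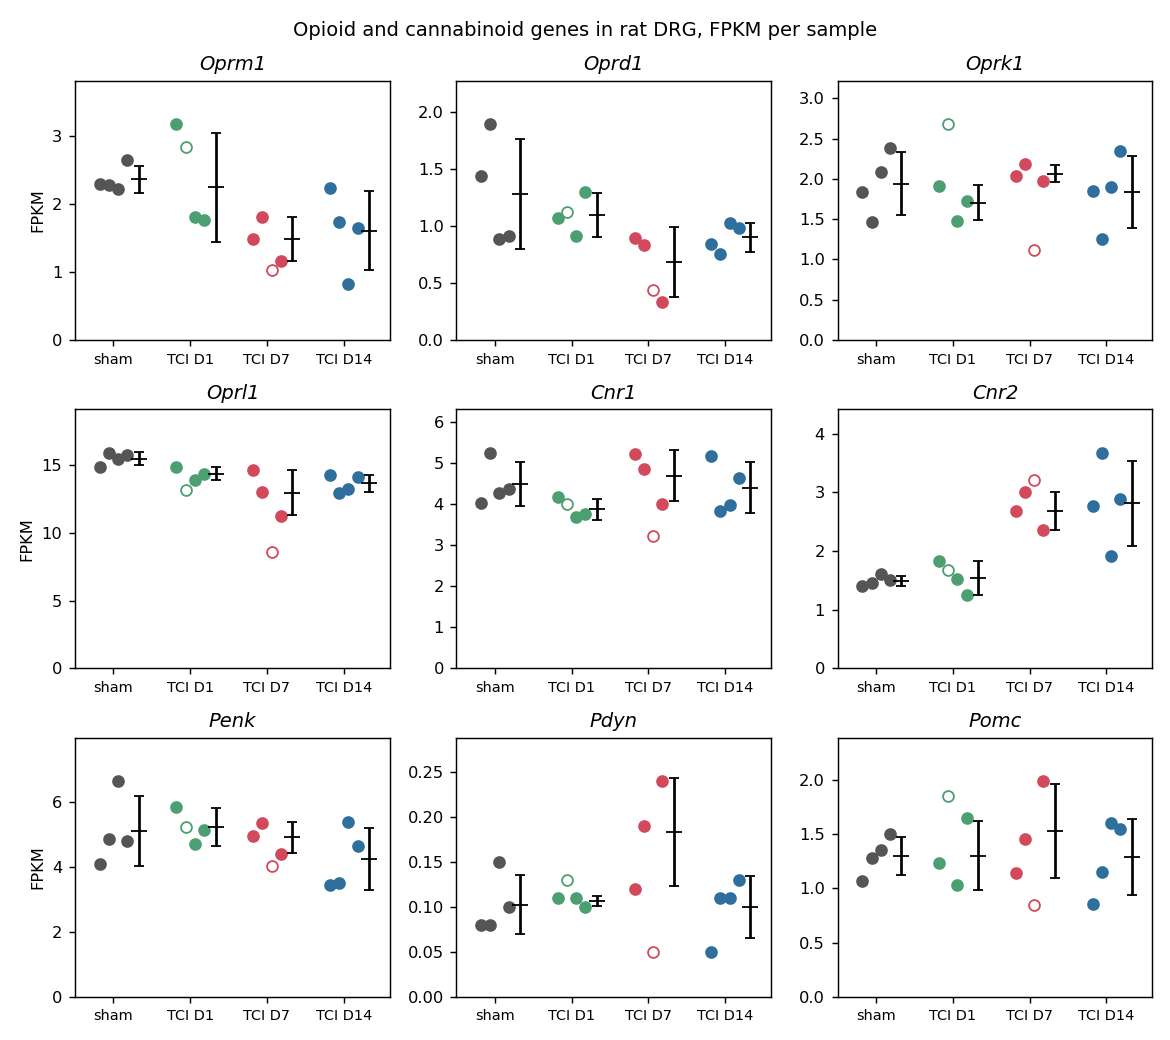
FPKM of each of the 9 genes in every sample of sham, TCI D1, TCI D7 and TCI D14, each panel on its own axis from 0. Filled points are the 14 samples used, open points the 2 that the study left out, and bars the mean and SD of the filled points. All TCI D7 and TCI D14 points of Cnr2 lie above the highest sham point of 1.61 FPKM.

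Genes were tested with limma on log2(FPKM + 1), and a gene was called when its p adjusted over all 14023 genes tested by the Benjamini-Hochberg method was at most 0.05. A fold change on this scale understates the change of genes near 1 FPKM. Of the 9 members, 8 reached 1 FPKM in at least 3 samples and entered the fit, and Pdyn did not. On TCI D7, 2 of these 8 were called, Cnr2 higher and Oprl1 lower, while 17.9% of all genes were called. By direction, 14.5% of all genes were called higher and 3.45% lower on that day. On TCI D14 only Cnr2 of the 8 was called, beside 15.1% of all genes (11.9% higher and 3.21% lower). The shares among the members, 1 or 2 of 8, are therefore near those of all genes. None of the 8 reached the cut-offs of the study (adjusted p up to 0.001 and log2 fold changes of 1 or more in either direction), which 1.83% of all genes passed on TCI D7 and 0.642% on TCI D14. The median log2 fold change of the 8 members was 0.01 on TCI D7 and −0.11 on TCI D14, beside 0.04 and 0.03 over all genes. Without adjustment, 4 members had p under 0.05 on TCI D7, beside 31.2% of all genes, and 3 on TCI D14, beside 29.9%.

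**Figure D2:**
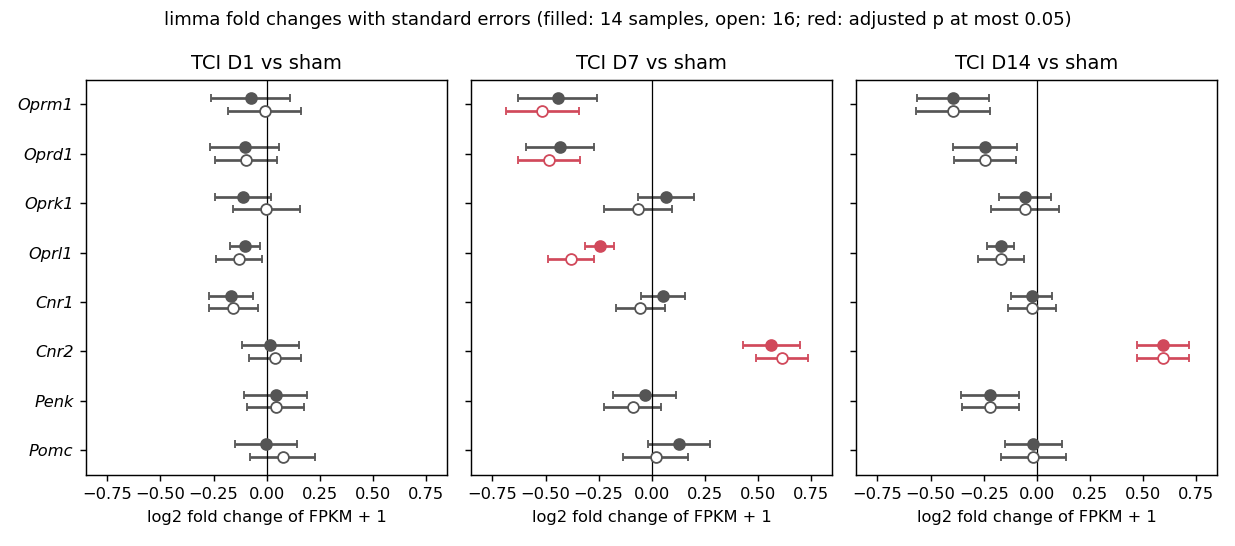
Log2 fold change of FPKM + 1 against sham, with its standard error, for the 8 genes tested with limma on each day. Filled points come from the fit of 14 samples and open points from all 16, and red marks an adjusted p of at most 0.05. Cnr2 is red in both fits on TCI D7 and TCI D14.

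Cnr2 read 1.4, 1.45, 1.61 and 1.51 FPKM in the 4 sham samples. On TCI D1 it read 1.83, 1.52 and 1.25 FPKM, a range that spans the sham values. The TCI D7 samples stood at 2.69, 3.01 and 2.36 FPKM and the TCI D14 samples at 2.77, 3.68, 1.91 and 2.89 FPKM. Every sample of both later days was thus above every sham sample, which held for 23.8% of all genes on TCI D7 and 13.8% on TCI D14. The mean FPKM was 1.80-fold that of sham on TCI D7 and 1.88-fold on TCI D14. In the limma fit the log2 fold change was 0.56 (SE 0.134, adjusted p = 0.0111) on TCI D7. It was 0.59 (SE 0.124, adjusted p = 0.00751) on TCI D14. Without replicate 2 of TCI D7 the day 7 call of Cnr2 was lost (adjusted p = 0.0547), and the other fits that tested it kept the call. The samples that the study left out read 1.68 FPKM on TCI D1, within the range of that day, and 3.22 FPKM on TCI D7, above the others of that day.

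The gene Cnr2 (Entrez 57302) lies on chromosome 5, and the RefSeq table of rat assembly GRCr8 lists 3 start sites for it on the + strand. The 250 bases before each are shown because Cnr2 was the member called on both later days, and the gene-level FPKM does not tell which start was used. Capitals mark TATAAA, the TATA box core, and AGGAAG, a core bound by ETS family factors such as PU.1 of myeloid cells, with both searched on both strands and no overlap between them.
Cnr2 region 1, chr5:153408934-153409183: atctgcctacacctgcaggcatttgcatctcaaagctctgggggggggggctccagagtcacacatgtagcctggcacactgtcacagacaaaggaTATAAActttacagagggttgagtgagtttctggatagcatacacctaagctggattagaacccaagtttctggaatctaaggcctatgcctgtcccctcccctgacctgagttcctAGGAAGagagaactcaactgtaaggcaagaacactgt
Cnr2 region 2, chr5:153426782-153427031: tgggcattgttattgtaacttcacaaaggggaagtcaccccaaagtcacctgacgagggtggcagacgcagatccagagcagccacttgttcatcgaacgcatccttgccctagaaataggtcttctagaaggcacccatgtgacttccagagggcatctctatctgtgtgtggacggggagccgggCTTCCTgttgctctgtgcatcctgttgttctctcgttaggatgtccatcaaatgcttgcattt
Cnr2 region 3, chr5:153431813-153432062: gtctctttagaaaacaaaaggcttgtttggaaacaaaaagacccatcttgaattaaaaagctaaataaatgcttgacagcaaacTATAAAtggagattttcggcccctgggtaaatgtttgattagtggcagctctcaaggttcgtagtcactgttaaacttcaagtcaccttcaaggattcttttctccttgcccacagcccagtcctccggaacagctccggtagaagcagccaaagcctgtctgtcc
Region 1 holds TATAAA 154 bases and AGGAAG 37 bases before its start. Region 2 holds AGGAAG on the other strand, read as CTTCCT, 63 bases before its start, and region 3 holds TATAAA 166 bases before its start. Among 33469 RefSeq regions of this length, 29.5% held AGGAAG and 12.9% held TATAAA on either strand, so each match is common. A match describes letters and not a site of binding. The same table matched 5 of the 9 members.

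The summed macrophage, T cell and neutrophil lists were also higher than in sham on TCI D7 and TCI D14, whereas the B cell list overlapped sham. A list of 15 macrophage genes summed to between 69.3 and 132 FPKM in sham and between 93.4 and 112 FPKM on TCI D1, then to between 942 and 1261 FPKM on TCI D7 and between 529 and 1835 FPKM on TCI D14. A T cell list summed to between 6.33 and 9.47 FPKM in sham, 45.5 and 108 FPKM on TCI D7 and 38.7 and 112 FPKM on TCI D14. Of the T cell list, Cd8b was at 0 in every sham sample and Cd3d and Cd5 in every TCI D1 sample used. A B cell list stayed low, between 3.28 and 4.68 FPKM in sham and 4.05 to 6.38 FPKM on TCI D14, with Ms4a1 and Fcer2 at 0 in every sham sample. Only 1 of its 9 genes was tested, and none was called. A neutrophil list summed to between 0.81 and 1.21 FPKM in sham, 5.30 and 20.1 FPKM on TCI D7 and 1.75 and 3.01 FPKM on TCI D14, with Mpo and Elane at 0 in every sham sample. No count of calls is given for these 3 lists, since 3 of 15 macrophage, 10 of 11 T cell and 2 of 2 neutrophil genes tested met the filter only through samples of TCI D7 or TCI D14. Of 9 Schwann cell genes 0 were called on TCI D7 and 1 was lower on TCI D14, of 7 satellite glia genes 1 was higher and 1 lower on TCI D7 and 2 were lower on TCI D14, and of 8 endothelial genes 2 were higher on TCI D7 and 0 on TCI D14. None of 5 tested skeletal muscle genes was called. Over all genes, 14.5% were called higher and 3.45% lower on TCI D7, and 11.9% higher and 3.21% lower on TCI D14. Within TCI D7 the samples used had the same order by macrophage sum and by Cnr2. The left-out replicate 3 had the lowest sum of that day (835 FPKM) and the highest Cnr2 (3.22 FPKM). On TCI D14 replicate 2 was highest in both, whereas replicate 4 had the lowest sum and a Cnr2 of 2.89 FPKM. The part of the listed cells in the Cnr2 result was not tested. In whole ganglia, a change in the number of cells of a type and a change in RNA per cell cannot be told apart.

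**Figure D3:**
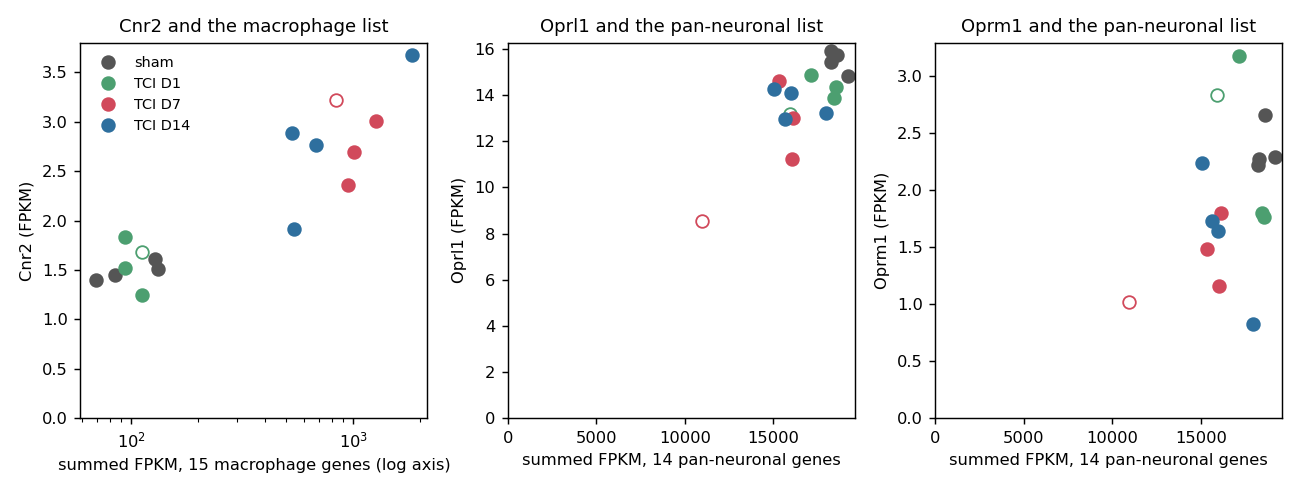
Cnr2 FPKM of each sample against the summed FPKM of 15 macrophage genes on a log axis (left), and FPKM of Oprl1 (middle) and Oprm1 (right) against the summed FPKM of 14 pan-neuronal genes. Open points are the 2 samples that the study left out. The TCI D7 and TCI D14 points lie to the right of all sham points in the left panel.

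Cnr1, the gene of the receptor CB1, was not called on any day. It read 4.03, 5.25, 4.27 and 4.37 FPKM in sham, 4.16, 3.68 and 3.76 FPKM on TCI D1, 5.22, 4.84 and 4 FPKM on TCI D7 and 5.16, 3.83, 3.98 and 4.63 FPKM on TCI D14. The ranges of all later groups overlapped that of sham. In the limma fit its log2 fold change was 0.05 on TCI D7, with a 95% interval of −0.17 to 0.28, and −0.02 on TCI D14, with an interval of −0.23 to 0.19 (adjusted p = 0.781 and 0.901). The ratio of Cnr2 to Cnr1 within a sample, which does not depend on the scaling of the sample, was 0.337 ± 0.0428 (SD, n = 4) in sham and 0.395 ± 0.0559 (n = 3) on TCI D1. It was 0.576 ± 0.0547 (n = 3) on TCI D7 and 0.650 ± 0.215 (n = 4) on TCI D14. The lowest ratio on the later days, 0.480, was above the highest in sham, 0.377.

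Oprl1, whose product binds nociceptin, read 14.82, 15.91, 15.43 and 15.75 FPKM in sham. Its values were 14.87, 13.87 and 14.35 FPKM on TCI D1, 14.6, 13.03 and 11.25 FPKM on TCI D7 and 14.26, 12.97, 13.24 and 14.11 FPKM on TCI D14. All samples of TCI D7 and TCI D14 were below all sham samples, as were 10.1% of all genes on TCI D7 and 5.38% on TCI D14. Oprl1 fell on TCI D7 by 0.25 on the log2 scale (limma, SE 0.0697, adjusted p = 0.0270). On TCI D14 its log2 fold change was −0.17 (SE 0.0645, adjusted p = 0.0941), which was not called, although it was without replicate 4 of TCI D7 (adjusted p = 0.0338) and under quantile normalization (−0.23, adjusted p = 0.0264). The day 7 call was lost when replicate 2, 3 or 4 of sham or replicate 2 or 4 of TCI D7 was left out. Without replicate 4 of TCI D7 the log2 fold change was −0.15 (adjusted p = 0.111). It was also lost in a limma fit of the 2 groups alone (adjusted p = 0.0597) and with each sample centred on the pan-neuronal genes (−0.05, adjusted p = 0.648).

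The sum of the pan-neuronal list was also lower on TCI D7 and TCI D14 than in sham. Within a group of the samples used, the order by this sum was not the order by Oprl1. Groups of this size cannot show whether the sum and Oprl1 go together. Replicate 3 of TCI D7, left out by the study, was the lowest sample in both, with 10959 FPKM for the list and 8.55 FPKM for Oprl1. Of the 14 pan-neuronal genes 5 were called lower and 0 higher on both TCI D7 and TCI D14. Over all genes, 3.45% were called lower on TCI D7 and 3.21% on TCI D14. The list summed to between 18259 and 19204 FPKM in sham, 17142 and 18556 FPKM on TCI D1, 15330 and 16126 FPKM on TCI D7 and 15047 and 17968 FPKM on TCI D14. None of 11 nociceptor genes was called on either day, and that list summed to between 1399 and 1650 FPKM in sham and 1426 and 1584 FPKM on TCI D7. The part of the neuronal share in the receptor values was not tested. Centring is no test of it, since it moved the median log2 fold change of all genes on TCI D7 from 0.04 to 0.23.

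Oprm1, the gene of the mu receptor through which morphine acts, read 2.29, 2.27, 2.22 and 2.65 FPKM in sham. On TCI D1 it read 3.17, 1.8 and 1.76 FPKM, with 1 sample above and 2 below sham. It stood at 1.48, 1.8 and 1.16 FPKM on TCI D7, all below sham, which held for 10.1% of all genes. On TCI D14 it stood at 2.23, 1.73, 0.82 and 1.64 FPKM, where the highest sample lay within the sham range. The limma fit gave a log2 fold change of −0.44 on TCI D7, with a 95% interval of −0.84 to −0.04 (adjusted p = 0.119). On TCI D14 it gave −0.39, with an interval of −0.76 to −0.03 (adjusted p = 0.140). Neither passed the threshold, and the day 14 value was −0.23 without replicate 3 of TCI D14. Over all 16 samples, with a TCI D7 replicate 3 of 1.02 FPKM, the day 7 value of Oprm1 was −0.52 and was called (adjusted p = 0.0482). That replicate was the one with the high skeletal muscle sum, and its pan-neuronal sum of 10959 FPKM was the lowest of all samples. Among the other fits, Oprm1 was called on TCI D7 without replicate 3 of TCI D14 (adjusted p = 0.0452), in a limma fit of the 2 groups alone (adjusted p = 0.0169), with array quality weights (adjusted p = 0.0415) and under quantile normalization (−0.67, adjusted p = 0.00919). Quantile normalization also called it on TCI D14 (−0.55, adjusted p = 0.0212).

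Oprd1, which encodes the delta receptor for enkephalins, read 1.44, 1.89, 0.88 and 0.91 FPKM in sham and 1.07, 0.91 and 1.3 FPKM on TCI D1. It read 0.89, 0.83 and 0.33 FPKM on TCI D7 and 0.84, 0.75, 1.02 and 0.98 FPKM on TCI D14. The sham samples ranged from 0.88 to 1.89 FPKM, and each later group overlapped them. On TCI D7 the overlap came only from the sample at 0.89 FPKM. The log2 fold change of Oprd1 on TCI D7 was −0.43 (limma, SE 0.162, adjusted p = 0.0854), and on TCI D14 it was −0.24 (SE 0.150, adjusted p = 0.301). The day 7 value was −0.27 without replicate 4 of TCI D7, and the day 14 value was −0.12 without replicate 2 of sham. With all 16 samples the day 7 value was −0.48 and was called (adjusted p = 0.0307), as it was under quantile normalization (−0.78, adjusted p = 0.00603). The added TCI D7 replicate 3, the sample with the high skeletal muscle sum, read 0.44 FPKM.

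Oprk1, the gene of the kappa receptor for dynorphins, gave no call on any day. It read 1.84, 1.46, 2.08 and 2.38 FPKM in sham, 1.91, 1.48 and 1.73 FPKM on TCI D1, 2.03, 2.18 and 1.98 FPKM on TCI D7 and 1.85, 1.25, 1.9 and 2.35 FPKM on TCI D14. All 3 later groups overlapped sham. The log2 fold change of Oprk1 was 0.07 on TCI D7, with a 95% interval of −0.22 to 0.35, and −0.06 on TCI D14, with an interval of −0.32 to 0.21 (limma, adjusted p = 0.772 and 0.801). Its sign changed with the processing.

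Summed over the 4 opioid receptor genes, sham samples held 20.4, 21.5, 20.6 and 21.7 FPKM. The sum was 21.0, 18.1 and 19.1 FPKM on TCI D1, 19.0, 17.8 and 14.7 FPKM on TCI D7 and 19.2, 16.7, 17.0 and 19.1 FPKM on TCI D14. Every sample of the later days was thus below every sham sample. Most of the sum was Oprl1, with 73.5% ± 1.08 (SD, n = 4) in sham, 75.4% ± 2.09 (n = 3) on TCI D7 and 76.0% ± 2.13 (n = 4) on TCI D14. Oprm1 made up 11.2% ± 0.742 in sham, 8.59% ± 1.30 on TCI D7 and 8.85% ± 2.96 on TCI D14. These sums describe members chosen with their results known, and no test was made of them.

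**Figure D4:**
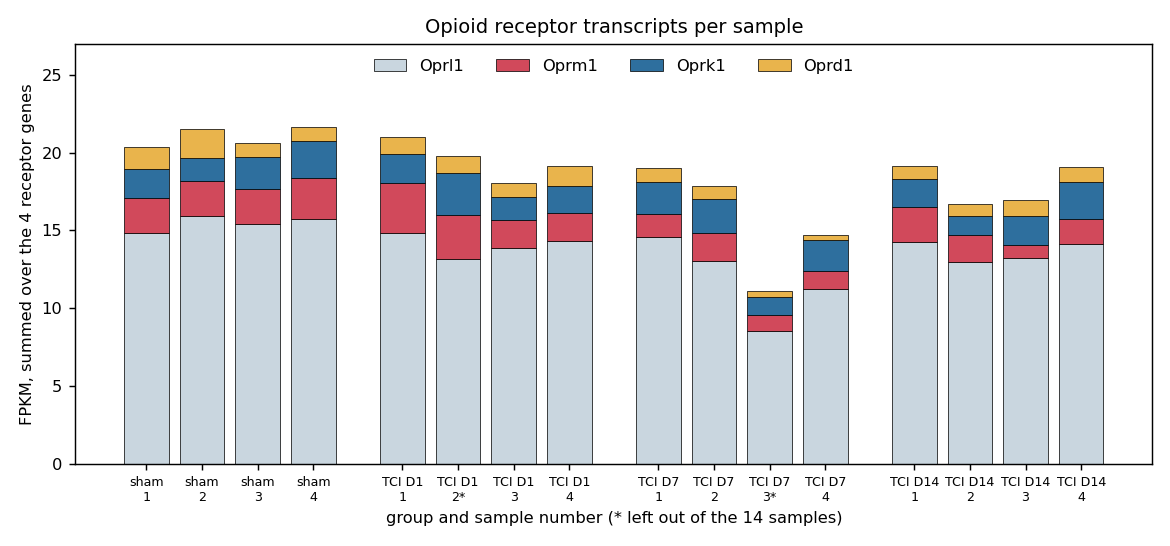
FPKM of Oprl1, Oprm1, Oprk1 and Oprd1 stacked for each of the 16 samples, from 0, with an asterisk on the 2 samples that the study left out. Oprl1 fills most of each bar, and the bars of TCI D7 and TCI D14 end below the lowest sham bar of 20.4 FPKM.

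Penk, the enkephalin precursor and the most abundant of the precursor genes, read 4.11, 4.88, 6.66 and 4.8 FPKM in sham and 5.86, 4.73 and 5.14 FPKM on TCI D1. It read 4.98, 5.37 and 4.41 FPKM on TCI D7 and 3.46, 3.5, 5.41 and 4.65 FPKM on TCI D14. Sham replicate 3 was the highest of all, and the groups overlapped. In the limma fit the log2 fold change was −0.03 on TCI D7, with a 95% interval of −0.35 to 0.29 (adjusted p = 0.910). On TCI D14 the Penk value was −0.22, with an interval of −0.51 to 0.08 (adjusted p = 0.308). Leaving out 1 sample gave −0.32 to −0.11 on TCI D14, the latter without sham replicate 3 and the former without TCI D14 replicate 3.

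Pomc, the precursor of beta-endorphin, read 1.07, 1.28, 1.35 and 1.5 FPKM in sham, 1.23, 1.03 and 1.65 FPKM on TCI D1, 1.14, 1.46 and 1.99 FPKM on TCI D7 and 0.86, 1.15, 1.6 and 1.55 FPKM on TCI D14. No group was set apart. The log2 fold change of Pomc was 0.13 on TCI D7, with a 95% interval of −0.19 to 0.44, and −0.02 on TCI D14, with an interval of −0.31 to 0.28 (limma, adjusted p = 0.601 and 0.955).

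Pdyn, the dynorphin precursor, was near the lower end of what these tables resolve. It read 0.08, 0.08, 0.15 and 0.1 FPKM in sham, 0.11, 0.11 and 0.1 FPKM on TCI D1, 0.12, 0.19 and 0.24 FPKM on TCI D7 and 0.05, 0.11, 0.11 and 0.13 FPKM on TCI D14. TCI D7 overlapped sham, with 2 of 3 samples above all sham samples. The difference of the mean log2(FPKM + 1) from sham was 0.10 on TCI D7 (two-sided exact permutation test, p = 0.0857), where the smallest p the design allows is 0.0286. The same exact test gave p = 0.914 on TCI D1 and p = 0.886 on TCI D14. Replicate 3 of TCI D7, left out by the study, read 0.05 FPKM, and with it the day 7 difference was 0.06 (exact permutation test, p = 0.343).

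On TCI D1, 0 of the 8 members and 0% of all genes were called against sham with limma. At an unadjusted p under 0.05 there were 0 members and 734 genes (5.23%). Between TCI D7 and TCI D1, Cnr2 alone of the 8 was called, beside 10.4% of all genes, with a log2 fold change of 0.54 (SE 0.144, adjusted p = 0.0288). This call was lost in 6 of 24 alternative fits. Among them were quantile normalization and the fits without replicate 3 or 4 of TCI D1 or replicate 1 or 2 of TCI D7. The adjusted p of these single-sample fits ran from 0.0812 to 0.119. Between TCI D14 and TCI D7, 0 of the 8 were called, beside 0.0998% of all genes with limma. At an unadjusted p under 0.05 there were 0 members and 1396 genes. The comparisons with sham share the 4 sham samples.

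The other genes of the opioid and endocannabinoid pathways were taken from 5 lists with 78 genes in the tables, of which 72 were tested. On TCI D1 0 were called. On TCI D7 9 were called higher and 7 lower, beside 14.5% of all genes higher and 3.45% lower. On TCI D14 7 were higher and 2 lower, beside 11.9% and 3.21% of all genes. In either direction 16 and 9 of the 72 were called, near the 17.9% and 15.1% of all genes called on these days. Only the 7 lower on TCI D7 stood above the share of all genes in their direction, which was not tested. The counts by list below are to be read beside the same shares. Over all 16 samples, 11 of the pathway genes were called on TCI D7 and 5 on TCI D14. The day 7 count was 10 without replicate 1 of sham, 9 without replicate 1 of TCI D7 and 7 without replicate 4 of TCI D7.

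Among 15 genes that cut opioid peptides from their precursors or break them down, 1 rose and 3 fell on TCI D7, with a median log2 fold change of 0.04. Anpep, which encodes aminopeptidase N, an enzyme that degrades enkephalins and is also found on myeloid cells, went from 1.19 ± 0.153 FPKM (SD, n = 4) in sham to 3.93 ± 1.05 FPKM (n = 3) on TCI D7. Its log2 fold change of 1.15 (adjusted p = 0.000555) made it the only pathway gene past the cut-offs of the study, and on TCI D14 it was 0.51 (adjusted p = 0.0404). Lnpep, another aminopeptidase gene, fell by 0.59 on TCI D7 (adjusted p = 0.0365). Npepps, the puromycin-sensitive aminopeptidase, fell by 0.13 on TCI D7 and by 0.18 on TCI D14 (adjusted p = 0.0229 and 0.00415). Pcsk2, the convertase that cuts the precursors in secretory granules, fell by 0.14 on TCI D7 (adjusted p = 0.0399), a call lost over all 16 samples (adjusted p = 0.0523). Pcsk1n, an inhibitor of the convertases, had the highest sham level of the list at 533.7 ± 34.9 FPKM (n = 4) and gave no call.

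Of 9 tested genes for other receptors and ligands linked to opioids, 2 rose on TCI D7 and 1 on TCI D14, with medians of 0.06 and 0.11. Ackr3, an atypical receptor that takes up chemokines and opioid peptides, went from 3.14 ± 0.273 FPKM in sham to 6.49 ± 0.826 FPKM on TCI D7, a log2 fold change of 0.85 (adjusted p = 0.0201). Ogfr, the receptor of the opioid growth factor Met-enkephalin, rose by 0.40 on TCI D7 and 0.46 on TCI D14 (adjusted p = 0.0311 and 0.0125).

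In opioid receptor signalling, 4 of 28 tested genes rose and 1 fell on TCI D7, and 3 rose and 0 fell on TCI D14. Arrb2, the beta-arrestin that binds activated receptors, rose by 0.40 and 0.35 on these days (adjusted p = 0.00594 and 0.0105). Rgs14, which speeds the switching off of G proteins, rose by 0.53 and 0.43 (adjusted p = 0.00662 and 0.0165), and the receptor kinase gene Grk6 rose by 0.24 and 0.23 (adjusted p = 0.0311 and 0.0315). Gnai2, an inhibitory G protein subunit, rose by 0.24 on TCI D7 (adjusted p = 0.00948). Over all 16 samples none of these 4 kept its call, with adjusted p from 0.0756 to 0.296. Kcnj3, a subunit of the potassium channel that opioid receptors open, fell by 0.41 on TCI D7 (adjusted p = 0.0300) and kept its call over all 16 samples (adjusted p = 0.0142). Rgs4 was the most abundant in sham at 241.4 ± 33.2 FPKM and was not called.

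Among 14 genes that make or break down endocannabinoids and related lipids, 1 rose and 2 fell on TCI D7 and 1 rose and 1 fell on TCI D14. Abhd4, an enzyme on the path to N-acylethanolamines and the most abundant of them in sham at 322.9 ± 20.1 FPKM, stood at 250.7 ± 10.1 FPKM on TCI D7. It fell by 0.36 on TCI D7 and by 0.33 on TCI D14 (adjusted p = 0.00918 and 0.0129), and the day 14 call was lost over all 16 samples (adjusted p = 0.0729). Mgll, which breaks down 2-arachidonoylglycerol, fell by 0.30 on TCI D7 (adjusted p = 0.0367). Dagla, another gene of this list, was not called on TCI D7 in the main fit (limma, −0.19, adjusted p = 0.0797). Over all 16 samples Dagla was called lower (−0.33, adjusted p = 0.0480). Naaa, which breaks down palmitoylethanolamide, rose by 0.48 and 0.46 (adjusted p = 0.0135 and 0.0147), and its day 7 call was lost over all 16 samples (adjusted p = 0.0905).

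Of 6 tested genes for other receptors linked to endocannabinoids, 1 rose and 1 fell on TCI D7. Gpr18, a receptor for N-arachidonoylglycine that is found on lymphocytes, was at 0.03 to 0.08 FPKM in sham, 0.75 to 2.24 FPKM on TCI D7 and 0.58 to 2.57 FPKM on TCI D14, and met the filter only through samples of these later days. Its calls, which are among the counts above, are therefore given as a description. Gpr3, an orphan receptor with high activity of its own, fell by 0.35 on TCI D7 (adjusted p = 0.0163). Trpv1, the heat-gated channel that anandamide can open, had the highest sham level of these genes at 40.7 ± 4.48 FPKM and was not called. The macrophage, T cell and neutrophil lists described beside Cnr2 were also higher on these days, and their part in the pathway values was not tested.

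**Figure D5:**
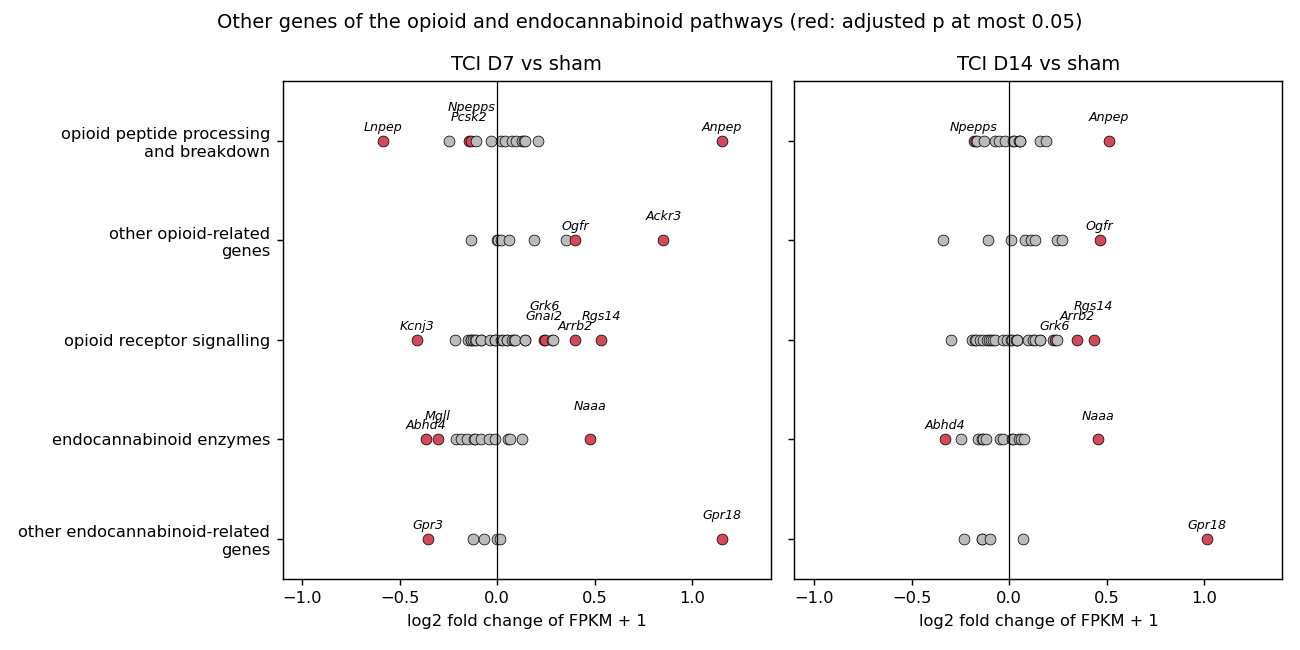
Log2 fold change of FPKM + 1 against sham on TCI D7 (left) and TCI D14 (right) for the 72 pathway genes tested, 1 row for each of the 5 lists. Red points with names have an adjusted p of at most 0.05 in limma, 16 on TCI D7 and 9 on TCI D14.

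For each tested member, the genes with a mean of at least 5 FPKM whose log2(FPKM + 1) followed it most closely over the 14 samples were listed as a description. The samples of 4 groups and their depth are shared by both genes of a pair. Cnr2 was closest to Slc12a7 (r = 0.961), a potassium chloride cotransporter, Irf8 (r = 0.957), a transcription factor of myeloid cells, and Mpeg1 (r = 0.956), a pore-forming protein of macrophages. Oprl1 was closest to Pnmal2 (r = 0.915), to the axonal adhesion gene Cntnap2 (r = 0.911) and to the synaptic vesicle gene Syt2 (r = 0.909). The genes nearest Oprm1 were Ids, Tarsl2 and Zdhhc21 (r from 0.920 to 0.936), and those nearest Oprd1 were Nek7, Ppp4r4 and LOC100125362 (r from 0.878 to 0.936). Lower values were reached for Pomc with Tars2, Tmem14c and Gtf2h4 (r from 0.817 to 0.877), for Cnr1 with Clock (r = 0.834) and Lpgat1 (r = 0.815), for Oprk1 with Pex7, Stk40 and Zscan21 (r from 0.797 to 0.834) and for Penk with Cdc16, Sh3gl3 and Mfhas1 (r from 0.775 to 0.799). Of the 3 genes nearest Cnr2, Mpeg1 had a log2 fold change of 2.81 and Irf8 of 2.28 on TCI D7, whereas Slc12a7 had 0.37. These genes were picked for following Cnr2 over the same samples, so their fold changes are a description and no separate support.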

How the data were processed

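RNA of 16 DRG samples was sequenced, and for each the authors deposited 1 table of FPKM values, rounded to 2 decimals, for 21021 genes. By the methods, low-quality reads were removed, clean reads were mapped with HISAT or Bowtie2 and genes were quantified with RSEM after sequencing on a BGISEQ-500. The submitters' processing notes name CASAVA 1.4 and Bowtie2, and the labels an Illumina protocol. The genome build and annotation are not given in the sources used here. Groups and replicate numbers were taken from the sample labels. Members and gene lists were chosen with earlier results of these data known.

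The deposited values were transformed to log2(FPKM + 1). The 14023 genes that reached 1 FPKM in 3 or more of 14 samples entered 1 linear model over 4 groups (limma 3.58.1 in R 4.3.3, eBayes with trend), with Benjamini-Hochberg adjustment of p. Read counts are not in the tables, so no counting error was computed. On simulated data of 14023 genes for TCI D7 against sham, 77 of 100 genes with a log2 fold change of 0.5 and 93 of 100 with 1 were recovered, with 10 false calls. Only 200 genes were changed there, with noise independent between genes, while 17.9% of genes were called in the data. The recovery therefore does not give the power for a single member. Pdyn, below the filter, was compared by a two-sided exact permutation test. Genes named are the 9 members, every pathway gene called against sham, the most abundant gene of each pathway list in sham, and for each tested member the 3 genes with the highest Pearson r among genes of at least 5 FPKM. The cell type markers at 0, and the genes Mpeg1, Irf8 and Slc12a7 with their fold changes, follow the same rule. Results for 2 genes that this rule names are not reported here. At most 2.69% of the values above 0 were identical between any 2 samples, and none was treated as a copy. The paper describes each sample as the DRGs of 1 animal, and same-numbered samples do not share one. Sequences were read from a RefSeq table of upstream regions (GRCr8) that holds 5 of the 9 members, and a RefSeq gene table of GRCr8 matched the Entrez identifiers of all 9. Plots were made in Python 3.11.15 (matplotlib 3.10.9).

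The alternatives were all 16 samples, only the 2 groups compared, no low-value filter, a filter at a mean of 5 FPKM, 0.1 as pseudocount, no intensity trend, quantile normalization, centring on the pan-neuronal genes, the replicate number as a block, array quality weights, the cut-offs of the study and each sample left out in turn. The fit of 15 samples without replicate 3 of TCI D7, and the alternatives for the pathway counts, Pdyn, the receptor sum and the Cnr2 ratio, were chosen after seeing the data.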

Additional observations from a re-analysis of the deposited data

Results flagged for a closer look

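In the sham group, Oprm1 of replicate 4 stood at 2.65 FPKM while the other 3 samples lay between 2.22 and 2.29 FPKM. Its gap to the nearest sample was 0.837 of the range of the group, above the 95% critical value of Dixon's test for 4 samples. It was the only such sample among the 36 groups of 4 tested (9 genes in 4 groups), where chance alone would mark about 1 group in 20.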

How the results depend on the processing

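Cnr2 against sham kept its direction under all 24 alternatives on TCI D7 (0.33 to 0.80, adjusted p from 0.000162 to 0.0547) and its call under all but the one without replicate 2 of TCI D7. On TCI D14 it kept both under all 24 (0.44 to 0.84, adjusted p from 0.000899 to 0.0332). Against TCI D1 its adjusted p ranged from 0.000194 to 0.119. The number of the 8 members called on TCI D7, 2 in the main fit, was 4 over all 16 samples (Oprm1, Oprd1, Oprl1 and Cnr2) and 4 under quantile normalization, 1 with a mean of at least 5 FPKM, where Oprl1 alone was tested, 1 with pan-neuronal centring (Cnr2), 0 at the cut-offs of the study and 0 to 3 with each sample left out. Leaving out only replicate 3 of TCI D7 gave 2. On TCI D14, 1 in the main fit, it was 3 under quantile normalization, 0 with a mean of at least 5 FPKM, 0 at the cut-offs of the study and 1 to 2 with each sample left out. Between TCI D7 and TCI D1, 1 in the main fit, it was 0 with a mean of at least 5 FPKM, 2 under quantile normalization (Oprm1 and Oprd1), 2 with array weights (Cnr1 and Cnr2), 0 at the cut-offs of the study and 0 to 1 with each sample left out. The count on TCI D1 and between TCI D14 and TCI D7 was 0 under every alternative.

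Quantile normalization moved the median log2 fold change of all genes on TCI D7 from 0.04 to −0.07, and pan-neuronal centring moved it to 0.23. On TCI D14 they moved it from 0.03 to −0.05 and 0.16. Relative to these medians, Oprm1 and Oprd1 were lower under each scaling. On TCI D7 Oprl1 was also below the median in the main fit (−0.25 against 0.04) and with centring (−0.05 against 0.23).

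Pathway genes called on TCI D7, 16 in the main fit, numbered 10 with a mean of at least 5 FPKM, 25 under quantile normalization, 27 with centring, 25 with array weights, 1 at the cut-offs of the study and 7 to 18 with each sample left out. On TCI D14, 9 in the main fit, they numbered 5 over all 16 samples, 15 under quantile normalization, 19 with centring, 3 with only the 2 groups compared, 0 at the cut-offs of the study and 6 to 13 with each sample left out.

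Replicate numbers do not pair animals. Deviations from the group means correlated from −0.0952 to 0.269 in 18 same-numbered pairs (median 0.00257) and from −0.326 to 0.410 in 55 other pairs. With the replicate number as a block, 3 members were called on TCI D7 (Oprm1, Oprl1 and Cnr2), 1 on TCI D14 and 0 between TCI D7 and TCI D1, where Cnr2 was at 0.45 (adjusted p = 0.0983), and pathway calls numbered 15 and 9.

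Of 410 recomputed fold changes 360 kept direction and call, 14 lost the call, 11 gained it and 25 changed sign. Those that changed sign were uncalled throughout, and the cause was not tested. On TCI D7 Oprk1 was −0.064 over all 16 samples and −0.17 under quantile normalization (−0.014 to 0.14 with each sample left out). Penk was 0.16 with centring and 0.028 with the block (−0.11 to 0.081), Pomc −0.10 under quantile normalization (−0.00020 to 0.24) and Cnr1 −0.054 over all 16 samples and −0.11 under quantile normalization (−0.015 to 0.14). On TCI D14 with centring Oprk1 was 0.080, Pomc 0.12 and Cnr1 0.11, and with array weights Oprk1 was 0.035 and Cnr1 0.056. With each sample left out they ranged from −0.14 to 0.051, from −0.082 to 0.080 and from −0.089 to 0.042 in this order. The difference of Pdyn from sham ranged from −0.0038 to 0.026 on TCI D1 and from −0.016 to 0.019 on TCI D14. The ratio of Cnr2 to Cnr1 on TCI D7 exceeded that of sham by 0.239, and by 0.345 over all 16 samples. The reads behind values near 1 FPKM are not in the tables, so their counting error is unknown.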
